A study of Mus musculus with 2 samples.

Results

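Calcium that starts each heartbeat has to be removed from the cytosol before the muscle can relax. Pumps of the SERCA family (Atp2a genes) return it to the sarcoplasmic reticulum, the exchanger NCX1 (Slc8a1) trades it for sodium across the surface membrane, and pumps of the PMCA family (Atp2b genes) carry a smaller flux outwards. Small membrane proteins set the pace of SERCA: phospholamban (Pln) and sarcolipin (Sln) inhibit it, and protein kinase A and CaM kinase II relieve the inhibition by phosphorylating phospholamban. The 10 genes described here are Atp2a1, Atp2a2 and Atp2a3, the regulators Pln, Sln, Hrc and S100a1, the surface pumps Atp2b1 and Atp2b4, and Slc8a1. They were chosen by name for their role, out of 55536 annotated genes in the tables.

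The RNA came from heart tissue of female B6CASTF1/J mice, a first-generation hybrid of a laboratory and a wild-derived strain, aged 25 days. There were 2 libraries from 300 ng of total RNA each, replicates 1 and 2 of the only group, with no treatment named, so no condition was compared. Each library has its own animal number under a common donor entry, so 2 animals are assumed; otherwise the spread given here is technical. The estimated counts on annotated genes summed to 42966739 in replicate 1 and 42720824 in replicate 2. Levels are in TPM, a length-corrected share of all transcripts that adds up to the same total in each library, from the alignment-based gene tables, and the second, read-based set of tables is named where it is used. All 8 cardiomyocyte markers were detected, meaning at least 1 TPM in both animals, at a list median of 5388 and 5519 TPM. Of the 12 markers of fast skeletal muscle 4 were detected, led by Ckm at 1717 and 1676 TPM and Acta1 at 198 and 158 TPM, which heart muscle is also known to express. The others detected were Casq1 at 6.91 and 5.24 TPM and Tnni2 at 2.74 and 2.12 TPM. The fast myosins Myh1 and Myh4 were at 0 in both animals, and at means of 0.258 and 0.0512 TPM read-based.

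Reading frames show how differently built these genes are. SERCA2 is made in a 2a form, the main form of heart muscle, and a 2b form found in most cell types. Both share their coding sequence up to base 2983 from the start codon and then part. The lines below give the last 39 shared coding bases in lower case and the coding end of each form, stop codon included, in capitals, read 5′ to 3′ from the GENCODE M21 transcripts (minus strand of mm10). The 2a end lies within chr5:122454291-122457341, with an intron before the capitals, and the 2b end is the unspliced stretch chr5:122457151-122457341.
Atp2a2-202 (2a): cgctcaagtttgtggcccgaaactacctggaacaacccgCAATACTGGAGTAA
Atp2a2-201 (2b): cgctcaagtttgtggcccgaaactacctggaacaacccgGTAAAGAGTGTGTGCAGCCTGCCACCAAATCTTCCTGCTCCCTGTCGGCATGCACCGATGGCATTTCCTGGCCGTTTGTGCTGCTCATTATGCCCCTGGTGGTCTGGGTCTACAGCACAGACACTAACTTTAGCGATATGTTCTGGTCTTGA

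The splice to a distant last exon gives the 2a form 14 further bases, 4 codons of its own and 998 codons in all. Reading on gives the 2b form 152 further bases, 50 codons of its own and 1044 codons in all. The 2 inhibitors have very short reading frames, 52 codons in Pln and 31 in Sln, which are shown because all Pln transcripts share the first of them and differ outside it. Capitals mark start and stop codons, and both genes lie on the plus strand, at chr10:53343864-53344022 and chr9:53853473-53853568 of mm10.
Pln-201: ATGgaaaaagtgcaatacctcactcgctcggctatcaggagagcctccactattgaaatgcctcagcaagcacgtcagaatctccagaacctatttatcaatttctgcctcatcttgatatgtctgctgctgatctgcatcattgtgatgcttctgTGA
Sln-201: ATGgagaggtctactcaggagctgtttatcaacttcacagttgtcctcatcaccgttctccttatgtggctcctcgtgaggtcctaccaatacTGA

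Atp2a2 was the leading member in both hearts and Atp2a1 the lowest, with levels spread over more than 4 orders of magnitude on a log axis. Detection at 1 TPM in both animals was reached by 9 of the 10 genes; the exception was Atp2a1. Ranked among 10972 detected protein-coding nuclear genes by mean level, Atp2a2 stood at place 6, Pln at 14, Hrc at 175, S100a1 at 182 and Slc8a1 at 315. Sln and Atp2b1 followed at places 2113 and 2186, Atp2b4 at 5637 and Atp2a3 at 7751. Of the 9 pairs of neighbours in the order, 8 did not overlap between the 2 animals, and Sln and Atp2b1 did. With 2 animals the smallest p of an exact sign-flip test is 0.5, so the order is a description.

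**Figure D1:**
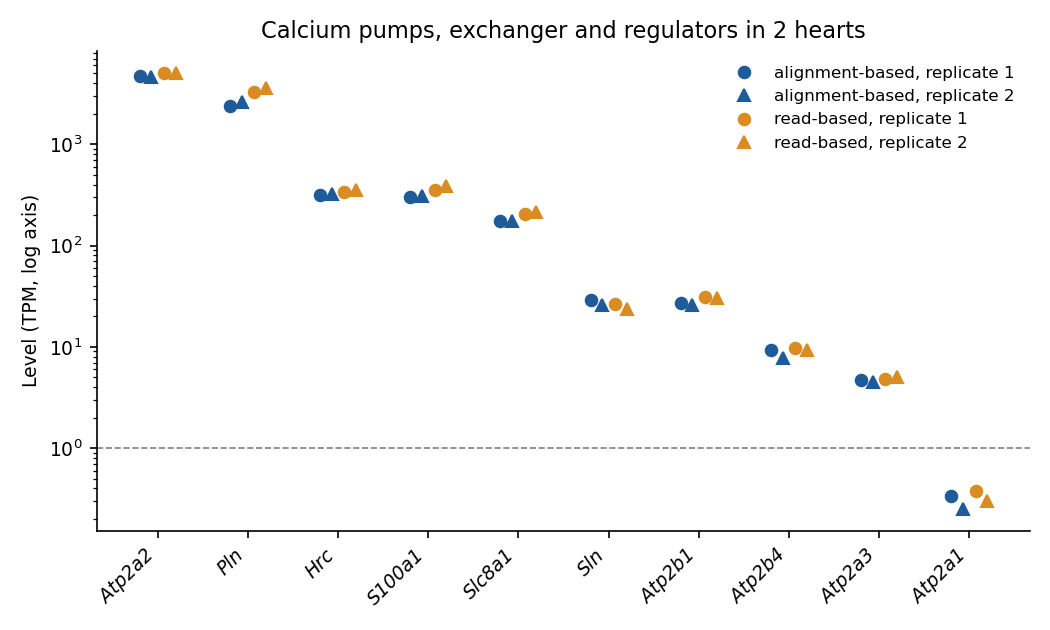
Level of each gene in TPM (log axis) by animal (circles replicate 1, triangles replicate 2) and by quantification (blue alignment-based, orange read-based); the dashed line marks 1 TPM. The points of a gene lie close together compared with the steps between most genes, and Atp2a1 is the only gene under the line.

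Atp2a2 (SERCA2, ENSMUSG00000029467.15, chromosome 5, positions 122453513 to 122502225 of mm10) had 4697 and 4650 TPM in replicates 1 and 2, on 630948 and 646570 counts. The read-based levels were 4992 and 5095 TPM. It held 99.893% and 99.899% of the summed TPM of the 3 SERCA genes, with a mean of 99.896% ± 0.0041 (SD, n = 2). Both hearts therefore gave nearly the same level and the same share by either quantification.

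Atp2a3 (SERCA3), known from blood cells, platelets and endothelium, had 4.69 and 4.46 TPM in replicates 1 and 2, and Atp2a1 (SERCA1), the pump of fast skeletal muscle, 0.340 and 0.250 TPM. Behind these stood 611 and 662 counts for Atp2a3 and 39 and 30 for Atp2a1. The deposited credibility bounds of Atp2a1, 0.269 to 0.609 TPM in replicate 1 and 0.187 to 0.459 TPM in replicate 2, did not reach 1 TPM. Reads that the 3 related genes share, and reads of Rabep2, which overlaps Atp2a1 on the opposite strand at 1.88 and 2.27 TPM, can be split by the counting, so a level this low is uncertain. Endothelial markers were all detected (8 of 8, summed 322 and 273 TPM), as were 3 of 5 platelet and 5 of 7 leukocyte markers (summed 16.7 and 19.1, and 24.9 and 21.9 TPM). Their part in the Atp2a3 level was not tested. In whole tissue, few cells with much RNA of a gene and many cells with little cannot be told apart.

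The 2a form made up most of Atp2a2, with a larger share in the read-based than in the alignment-based tables. Atp2a2-202, the coding transcript with the 2a stop codon, stood at 3565 and 3553 TPM in replicates 1 and 2, which is 75.9% and 76.4% of the gene. Atp2a2-201, the coding transcript with the 2b stop codon, stood at 1059 and 1044 TPM, or 22.5% and 22.4%. The deposited bounds of the forms were far apart in replicate 1, at 3481 to 3509 TPM for 2a and 1028 to 1047 TPM for 2b. In the read-based tables the 2a form held 83.0% and 82.7% and the 2b form 16.2% and 16.7%. The form was thus reproducible between animals to within 1 percentage point, while the choice of quantification moved it by several.

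The remaining 3 Atp2a2 transcripts together held 1.55% and 1.16% of the gene in replicates 1 and 2. Atp2a2-203, of the nonsense-mediated decay class, has the 2b reading frame and stop codon, after which the transcript runs on and joins the distant last exon, and it stood at 27.3 and 21.6 TPM. Atp2a2-204, a retained-intron transcript, stood at 38.0 and 29.0 TPM but at only 6.84 and 4.80 TPM read-based, so its level depended on the quantification. Atp2a2-205 stood at 7.69 and 3.29 TPM. All 3 were higher in replicate 1, against coding forms that were nearly level in TPM.

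**Figure D2:**
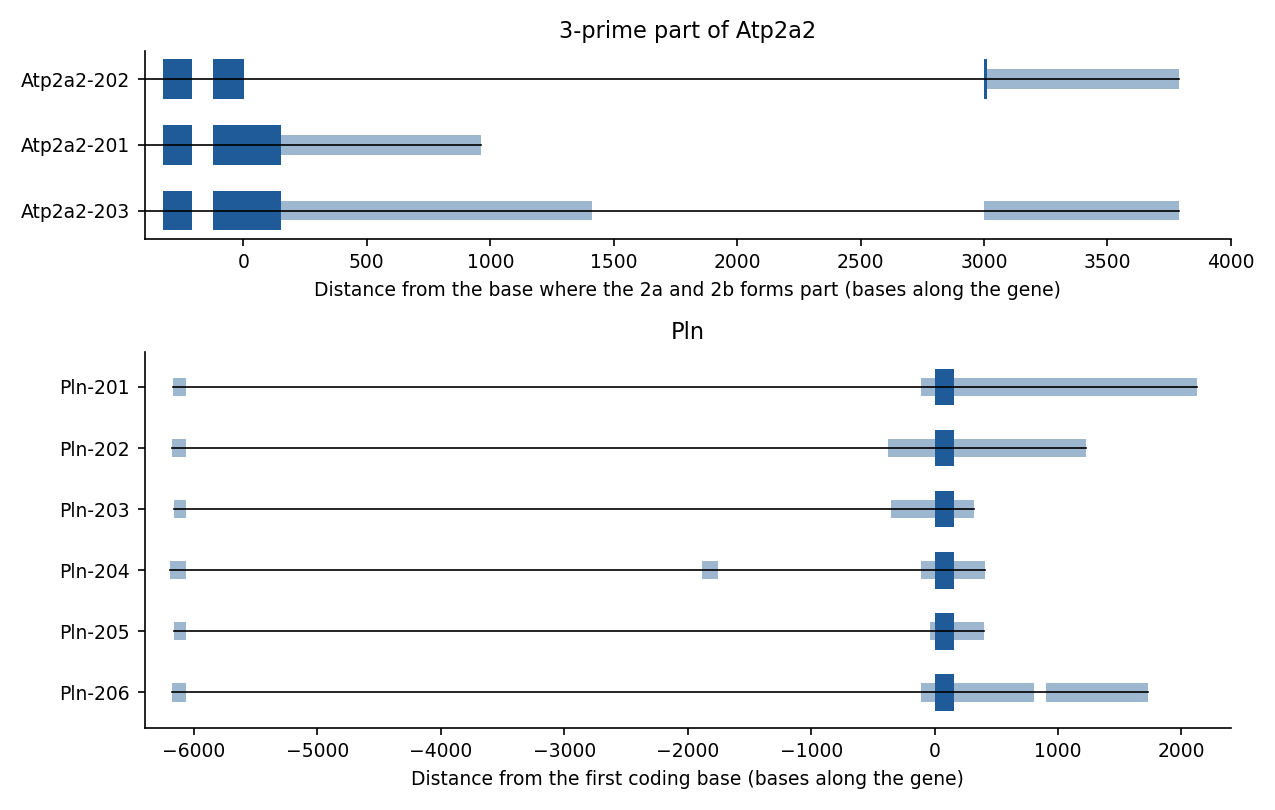
Exon models of the 3-prime part of Atp2a2 and of the 6 Pln transcripts; dark boxes are coding, light boxes are not, and the x axes give distance in bases from the point where the Atp2a2 forms part and from the first Pln coding base. The 2a form skips 2998 bases to its last exon, and the Pln transcripts share the coding box but end 161 to 1965 bases after it.

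Pln (ENSMUSG00000038583.13, chromosome 10, positions 53337667 to 53345987) came next after the pump it inhibits. It stood at 2394 and 2624 TPM in replicates 1 and 2 on 123757 and 139436 counts, and read-based at 3256 and 3586 TPM. The ratio of Pln to Atp2a2 TPM was 0.510 in replicate 1 and 0.564 in replicate 2, a mean of 0.537 ± 0.0387 (SD, n = 2), so there were 1.96 and 1.77 pump transcripts for each Pln transcript. Read-based ratios were higher, at 0.652 and 0.704. On the log2 scale of TPM + 0.1 the mean moved to -0.56 ± 0.08 read-based, against -0.90 ± 0.10 alignment-based, a step larger than the spread between the animals. Pln was the lower of the pair in both animals by both quantifications.

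All 6 Pln transcripts carry the same 52 codons and differ in their ends, and here the 2 quantifications parted. In the alignment-based tables Pln-201, which ends 1965 bases after the stop codon, led with 57.1% and 57.5% of the gene in replicates 1 and 2. Pln-205, with a short end of 245 bases, followed with 29.7% and 30.8%, and Pln-204, with an end of 249 bases and an additional exon before the coding one, with 8.72% and 8.17%. In the read-based tables Pln-204 led with 56.3% and 55.1%, Pln-201 held 41.1% and 42.1%, and Pln-205 was listed at 0 in both animals. Summed over the 3 transcripts that end within 500 bases of the stop codon, the short end held 39.4% and 40.1% alignment-based and 57.0% and 55.7% read-based. Both quantifications therefore gave a large share to short and to long ends, and which was larger depended on the quantification. Cep85l, a coding gene on the opposite strand that spans Pln, stood at 6.19 and 5.61 TPM.

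**Figure D3:**
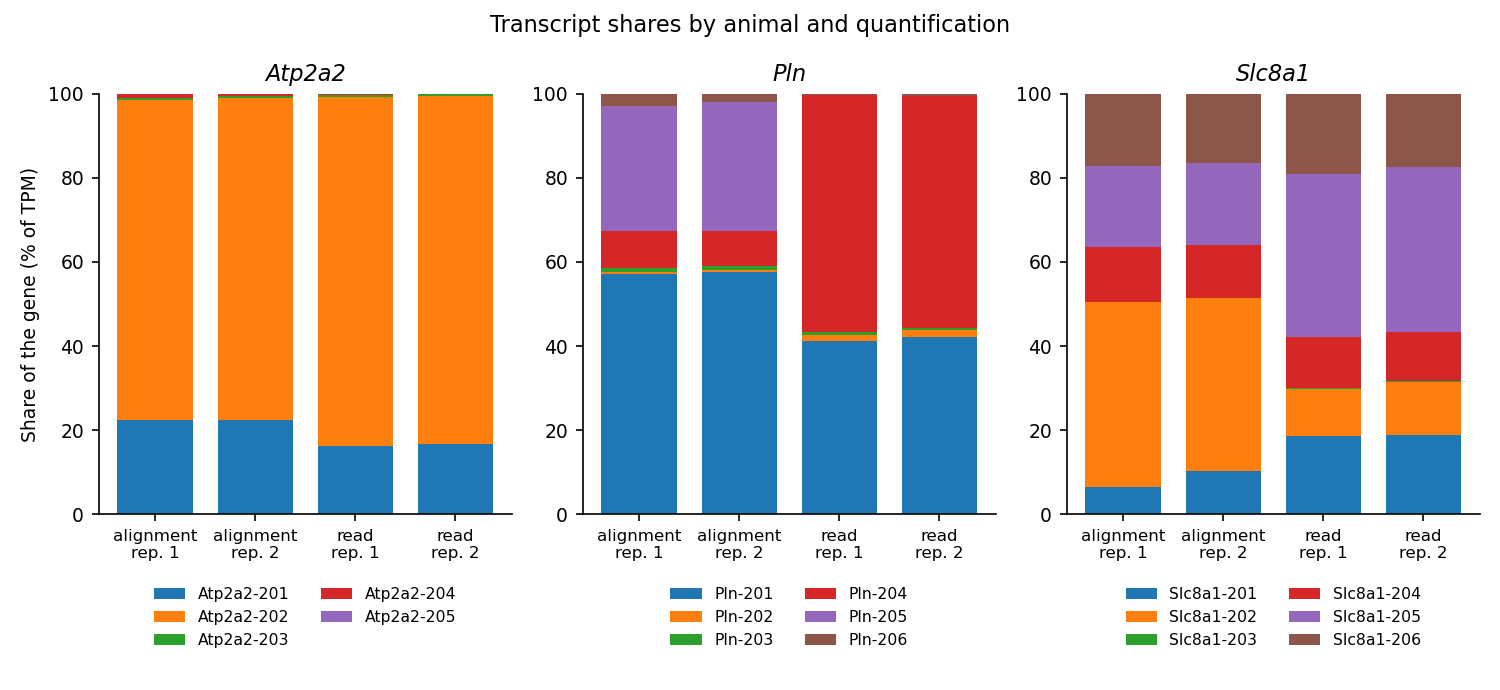
Share of each transcript in its gene (percent of TPM) for Atp2a2, Pln and Slc8a1, with 1 bar for each animal and quantification. Bars of the 2 animals look alike within a quantification, and the Pln and Slc8a1 bars differ between quantifications, with Pln-204 at 8.72% and 8.17% alignment-based and 56.3% and 55.1% read-based.

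Sln (ENSMUSG00000042045.6, chromosome 9, positions 53850164 to 53854560), an inhibitor known in rodents mainly from the atria, was far below Pln. Replicates 1 and 2 had 29.2 and 25.8 TPM, on 1204 and 1098 counts of its single transcript. Per Sln transcript there were 81.9 and 102 Pln transcripts and 161 and 180 Atp2a2 transcripts. Read-based, the corresponding numbers were 124 and 150 for Pln and 189 and 213 for Atp2a2. The atrial markers (7 of 7 detected) summed to 1515 and 1179 TPM and the ventricular ones (6 of 6, Pln among them) to 14742 and 15568 TPM. The part of chamber make-up in the Sln and Pln levels was not tested.

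Hrc and S100a1, 2 proteins known to act on SERCA2 and on calcium release, lay close together, well below the pump. Hrc (ENSMUSG00000038239.11, chromosome 7, positions 45335290 to 45338974), a histidine-rich calcium-binding protein inside the sarcoplasmic reticulum, stood at 317 and 319 TPM in replicates 1 and 2. S100a1 (ENSMUSG00000044080.9, chromosome 3, positions 90511034 to 90514392), a small calcium sensor of the cytosol known to raise SERCA2 and ryanodine receptor function, stood at 299 and 310 TPM. There were 14.8 and 14.6 Atp2a2 transcripts per Hrc transcript and 15.7 and 15.0 per S100a1 transcript. Hrc exceeded S100a1 in both animals in the alignment-based tables (lowest Hrc 317, highest S100a1 310 TPM). By the read-based levels S100a1 had 355 and 389 TPM and Hrc 339 and 355 TPM, so the order of this pair was not settled. A single transcript held nearly all of each gene, Hrc-201 with 98.6% and 99.1% and S100a1-201 with 99.3% and 99.7%.

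**Figure D4:**
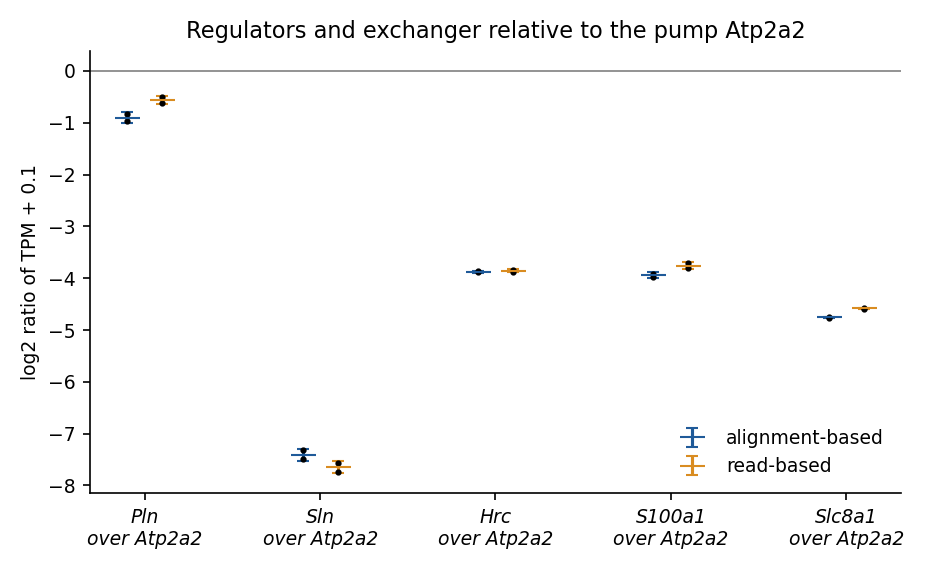
Log2 ratio of TPM + 0.1 of Pln, Sln, Hrc, S100a1 and Slc8a1 over Atp2a2, by quantification; dots are the 2 animals, bars the mean ± SD (n = 2), and the grey line marks equal levels. All genes lie below the line, Pln nearest to it at -0.90 ± 0.10 alignment-based and -0.56 ± 0.08 read-based.

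Slc8a1 (NCX1, ENSMUSG00000054640.15, chromosome 17, positions 81373105 to 81738377), the main route of calcium out of the heart muscle cell, had 173 TPM in both replicates on 28323 and 28958 counts. It exceeded the summed surface pumps Atp2b1 and Atp2b4 4.72-fold in replicate 1 and 5.16-fold in replicate 2 (5.13-fold and 5.41-fold read-based). For each Slc8a1 transcript there were 27.2 and 26.8 Atp2a2 transcripts. Its level per length was thus close to identical in both hearts, and its place between SERCA2 and the PMCA genes was the same by both quantifications.

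The make-up of Slc8a1 also depended on the quantification. Slc8a1-202, with the full 970 codons, led the alignment-based tables with 43.9% and 41.2% of the gene in replicates 1 and 2, against 11.2% and 12.6% read-based. Slc8a1-205 led the read-based tables with 38.8% and 39.1%, against 19.2% and 19.4% alignment-based. That transcript is annotated as incomplete: it ends at the 3-prime border of the large first coding exon (1799 coding bases, chromosome 17, positions 81647809 to 81649607), which all 6 transcripts contain. The same exon is known to form an abundant circular RNA in heart; the tables list no circular form, and its part in these values was not tested. Slc8a1-206 (940 codons) held 17.3% and 16.5%, near the read-based 19.2% and 17.5%. Slc8a1-204 (958 codons) averaged 12.8% ± 0.219 (SD, n = 2) and stood at 12.1% and 11.8% read-based. All forms of 970 codons summed to 50.5% and 51.4% alignment-based and to 30.0% and 31.6% read-based.

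The surface pumps were low, with Atp2b1 above Atp2b4. Atp2b1 (PMCA1, ENSMUSG00000019943.10, chromosome 10, positions 98914406 to 99026143), found in nearly all cell types, had 27.4 and 25.9 TPM in replicates 1 and 2 on 3551 and 3314 counts. Atp2b4 (PMCA4, ENSMUSG00000026463.17, chromosome 1, positions 133699457 to 133801041), known from smooth muscle, red blood cells and heart muscle, stood at 9.24 and 7.73 TPM on 1774 and 1568 counts. Atp2b1 exceeded Atp2b4 2.97-fold and 3.35-fold, and 3.17-fold and 3.30-fold read-based. The smooth muscle markers, all 6 detected, summed to 266 and 198 TPM, and the cardiomyocyte markers to 43490 and 44734 TPM. The 5 erythroid markers summed to 11299 and 10823 TPM but went both ways by scaled counts, with replicate 1 the higher for 3 of them and replicate 2 for the other 2. The part of these lists in the Atp2b4 level was not tested.

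Both PMCA genes were spread over many transcripts. Atp2b1-201, the one Atp2b1 transcript with a complete coding sequence (1220 codons), led with 43.2% and 41.0% of the gene in replicates 1 and 2, and 6 coding transcripts annotated as incomplete summed to 54.7% and 55.3%. Of these, Atp2b1-208 held 19.4% and 18.5%, Atp2b1-209 16.9% and 19.9%, and Atp2b1-207 12.6% and 14.1%. For Atp2b4, Atp2b4-207 (1205 codons) led with a mean of 48.2% ± 2.55 (SD, n = 2), and the noncoding Atp2b4-204 held 27.7% and 27.5% on only 42 and 36 counts. Atp2b4-203 (1172 codons) held 13.3% and 12.4%. Within the complete coding transcripts of Atp2b4, those with the stop codon of the 1205-codon form held 77.9% and 80.7%. Counting coding transcripts only, the 6 incomplete ones of Atp2b1 included, the log2 ratio of Atp2b1 over Atp2b4 was 2.07 ± 0.08. Over all transcripts it was 1.64 ± 0.12. Complete coding transcripts alone lay closer together, at 11.8 and 10.6 TPM for Atp2b1 and 6.56 and 5.61 TPM for Atp2b4 in replicates 1 and 2. The leading transcript of Atp2a3, Atp2a3-201, held 64.9% and 59.1% alignment-based but 90.8% and 66.2% read-based, on few counts.

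Over the 9 members with several annotated transcripts, the leading transcript was the same in both animals for all 9 in either quantification. Between the quantifications it was the same for 7 of 9, the exceptions being Pln and Slc8a1. In gene level, read-based over alignment-based, Pln stood at 0.45, S100a1 at 0.29, Slc8a1 at 0.28, Atp2b1 at 0.20 and Atp2a2 at 0.11 on the log2 scale, and Sln at -0.13. The median over 10972 detected protein-coding nuclear genes was 0.23, with quartiles of 0.12 and 0.40. Pln lay above the upper quartile, and Sln, Atp2a2 and Atp2a3 (0.11) lay below the lower one.

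The remaining calcium genes place these levels. Of 6 names in the list of other small SERCA regulators, 3 were found, and these genes were all detected. Arln, Erln and 2310015B20Rik were not found, so no level is given under these names. Strit1, whose micropeptide DWORF is known to relieve SERCA from phospholamban, is listed as Gm34302 (matched through RefSeq synonyms) and stood at 187 and 188 TPM on 908 and 944 counts. It was listed at 0 in both read-based tables; its transcript has 243 bases, and all 6 detected protein-coding genes with no transcript over 300 bases were listed at 0 there. The gene 1810037I17Rik, which encodes the micropeptide another-regulin, stood at 38.3 and 36.3 TPM, and Mrln (myoregulin, known from skeletal muscle) at 1.46 and 2.08 TPM. By the alignment-based tables Strit1 was thus above Sln and below Pln.

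Relatives of the pumps were mostly under 1 TPM. Of 9 other pumps and exchangers, 2 were detected: Atp2c1, a calcium and manganese pump of the Golgi, at 23.4 and 21.9 TPM, and Slc8b1, the mitochondrial sodium-calcium exchanger, at 3.57 and 3.72 TPM. Slc24a3 stood at 1.06 and 0.940 TPM, while Atp2b2, Atp2b3, Slc8a2 and Slc8a3 stayed at or under 0.410 TPM in both animals. On the release side, 13 of 16 genes were detected, led by the calcium store Casq2 at 426 and 421 TPM, Srl (sarcalumenin) at 427 and 395 TPM and the channel Ryr2 at 392 and 380 TPM. These levels lie above Hrc and S100a1 and far below Atp2a2.

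Genes listed as phospholamban kinases, phosphatases and partners, some of them general subunits and anchors, were all detected (20 of 20, median 29.1 and 30.9 TPM). Leading were Hspb6, a small heat shock protein known to bind protein phosphatase 1, at 277 and 257 TPM, the phosphatase catalytic subunit Ppp1cb at 182 and 181 TPM and the kinase A subunit Prkaca at 138 and 141 TPM. Of 12 calmodulin and surface-membrane partners all were detected, led by Bsg (basigin, known to partner with PMCA pumps) at 475 and 458 TPM and Fxyd1 (phospholemman) at 331 and 344 TPM. In the S100 list 7 of 10 genes were detected, with S100a1 well above S100a10 at 42.6 and 27.5 TPM and S100a11 at 37.3 and 22.8 TPM.

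Between the 2 hearts the members differed little. Counts scaled by TMM, a factor that makes typical genes equal, gave ratios of replicate 1 over replicate 2 from 0.864 for Pln to 1.27 for Atp2a1. The libraries were compared gene by gene with a two-sided exact binomial test, adjusted by Benjamini-Hochberg over the 15839 genes whose counts averaged 10 or more. With an adjusted p under 0.05, a ratio of at least 2 and separate credibility bounds required, 0 of 10 members were called, against 0.777% of all genes (0.480% higher in replicate 1 and 0.297% higher in replicate 2). No member reached a ratio of 2. At an unadjusted p under 0.05 and any ratio there were 6 of 10 members, against 4664 of 15839 genes. The test compares 2 libraries, covers counting error only and says nothing of conditions.

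With an adjusted p under 0.05 at any ratio, 6 of 10 members passed, against 19.9% of all genes tested. Lower in replicate 1 were 5, against 9.29% of all genes in that direction, and higher was 1, Atp2b4, against 10.6%. Counts of the abundant members are large enough for very small ratios to pass, and the median absolute log2 ratio was 0.12 over the members and 0.14 over all genes. Pln had 123757 counts in replicate 1 and 139436 in replicate 2, a 1.16-fold higher scaled level in replicate 2 (95% exact interval 1.15 to 1.17). That interval does not cover the choice of scaling: the Pln log2 ratio was -0.21 by TMM and -0.11 by spike-in totals (replicate 1 over replicate 2). S100a1 was 1.10-fold higher in replicate 2 (1.06 to 1.14, adjusted p = 2.56e-06, exact binomial test). Atp2b4 was 1.10-fold higher in replicate 1 (1.03 to 1.18, adjusted p = 0.0312), and its adjusted p was 0.0534 on read-based counts.

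Atp2a2 and Slc8a1 were each 1.05-fold and Hrc 1.07-fold higher in replicate 2 by TMM-scaled counts, a direction that did not hold with spike-in scaling (log2 0.03, 0.03 and 0.00, replicate 1 over replicate 2), which shifts all genes by a median of 0.1. TPM over all entries put Atp2a2 higher in replicate 1, at 4697 against 4650, whereas TPM rescaled to protein-coding nuclear genes gave 11874 and 12109 in replicates 1 and 2. Sln, Atp2b1, Atp2a3 and Atp2a1 did not pass, with intervals of the ratio from 0.983 to 1.16, 0.995 to 1.09, 0.804 to 1.00 and 0.766 to 2.11. The cardiomyocyte list had a median log2 ratio of -0.12 (7 of 8 higher in replicate 2). The ventricular list, with Pln in it, had -0.17 (5 of 6) and the platelet list -0.66 (3 of 3). The atrial list had 0.25 (7 of 7 higher in replicate 1), smooth muscle 0.39 (6 of 6), fibroblast 0.23 (6 of 7) and endothelial 0.10 (6 of 8). Fast skeletal muscle had 0.24 (4 of 5), leukocyte 0.21 (4 of 6) and erythroid 0.04 (3 of 5). Of all 15839 genes tested, 7885 were higher in replicate 1 and 7954 in replicate 2. The part of these lists in the members' ratios was not tested.

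**Figure D5:**
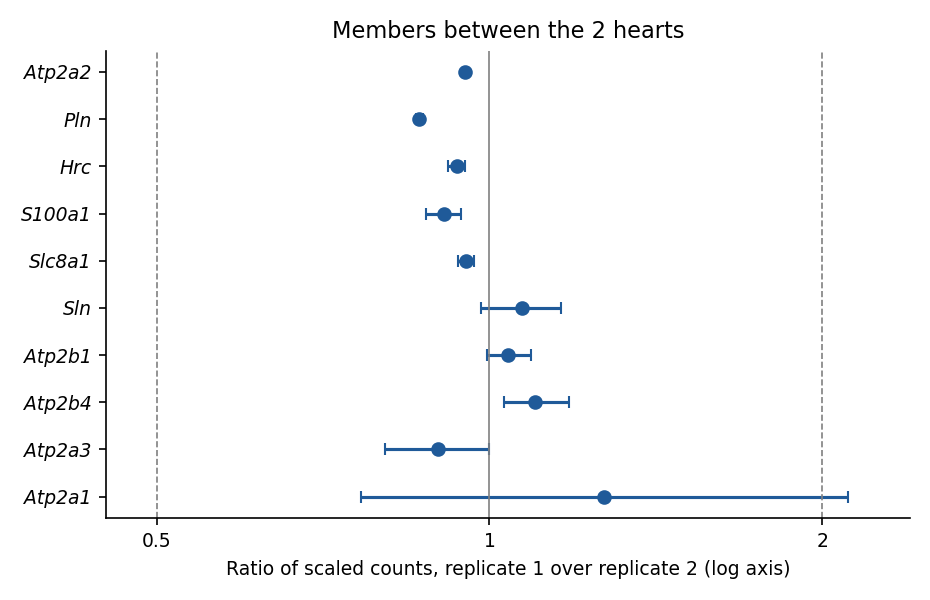
Ratio of TMM-scaled counts, replicate 1 over replicate 2 (log axis), with 95% exact intervals that cover counting error only; dashed lines mark ratios of 0.5 and 2. The points run from 0.864 for Pln to 1.27 for Atp2a1, and the widest interval, of Atp2a1 at 0.766 to 2.11, rests on 39 and 30 counts.

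Among the pathway lists no gene was called at a ratio of 2. At any ratio, 2 of the 20 genes on the phospholamban list passed higher in replicate 1 (10.6% of all genes tested). Another 12 passed higher in replicate 2 (9.29% of all genes tested). The list median was -0.11 against 0.0 for all genes by TMM. Spike-in scaling shifts the list and all genes alike by 0.1. Directions therefore depend on the scaling, while the difference between these medians does not. Prkaca and Ppp1cb were both 1.08-fold higher in replicate 2 by TMM. In the release list 3 of 15 tested genes passed higher in replicate 1 and 4 higher in replicate 2, beside the same 10.6% and 9.29% of all genes (median 0.01). In the S100 list S100a10 and S100a11 passed at 1.46-fold and 1.54-fold higher in replicate 1, and S100a1 at 1.10-fold higher in replicate 2. The small regulators had no gene past the threshold (0 of 3), with Strit1 1.07-fold higher in replicate 2 at an adjusted p of 0.382 in the exact binomial test.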

How the data were processed

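Per the deposited listings, the authors made 2 sets of tables per library on mm10 with GENCODE M21, 1 from transcriptome alignments (gene and transcript) and 1 from a FASTQ file (transcript); the tools, their versions and any strand setting: not given in the sources used here. Expected counts (estimated counts in the read-based tables) were deposited without normalization, per the file headers. The deposited TPM covers every entry of a table, spike-ins included. Each transcript's percent of its gene was deposited too. The score columns hold the deposited credibility bounds on TPM, of unstated level; they sit around the posterior mean TPM, so a TPM value can lie outside them.

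Read-based transcripts were summed to genes, and transcript forms were defined by annotated stop codons and ends. Ratios used a pseudocount of 0.1. Counts were rounded, scaled by TMM in edgeR 4.0.16 (R 4.3.3) over genes averaging 10 or more counts and tested with scipy 1.17.1. The test was checked on simulated data, without the rule on credibility bounds and with changes larger than those of the members. That check therefore does not cover the bounds rule or small ratios. Depth was 42966739 and 42720824 counts, and intervals cover counting error, since reads are not known to be independent molecules. Alternatives are listed under the dependence on processing and include DESeq2 1.42.0 size factors. Named genes were all members, the 3 highest of each pathway list (a gene of the surface-membrane list is not reported here) and transcripts with at least 10% of a gene in both animals; other list genes and transcripts were named after their values were seen. Members and lists were chosen with earlier results of these data known. Sequences were read from the M21 transcripts.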

Additional observations from a re-analysis of the deposited data

How the results depend on the processing

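The count of 9 detected members was also 9 under read-based and posterior mean TPM. It was 9 under rescaled TPM as well, where every level of a library is raised by the same factor and no detected member could drop out. Without either replicate it was 9 too, and could not have been lower, since detection required both animals. A value with a replicate left out is that of the other animal alone. The count of 8 separate neighbours was also 8 under read-based and posterior mean TPM, the settings run for it. The 8 pairs were not the same read-based, where the order swapped Hrc with S100a1 and Sln with Atp2b1. Read-based, S100a1 and Hrc overlapped, and Atp2b1 lay clear above Sln (lowest Atp2b1 30.4, highest Sln 26.4 TPM). The log2 ratio of Pln over Atp2a2 was -0.90 and moved to -0.56 read-based, with -0.97 to -0.83 when either replicate was left out. The 2a share of Atp2a2 was 76.2%, 82.8% read-based and 77.2% of coding transcripts (75.9 to 76.4% with a replicate left out). The short end of Pln moved to 56.3% read-based, against 39.7% (39.4 to 40.1%), and Slc8a1-205 to 38.9%, against 19.3% (19.2 to 19.4%). Levels rescaled to protein-coding nuclear genes were by construction higher for all 10 members, for example 6442 TPM for Pln. Why the quantifications differ was not tested. The number of genes called between the animals was 123, against 25 at a mean count of at least 100, where fewer genes are tested, 274 without the credibility bounds and 309 at a ratio of 1.5. The number of members called was 0 in each. These settings could not have changed it, since the largest member difference was 1.27-fold (Atp2a1). At a mean count of at least 100, Atp2a1 was not tested. With spike-in scaling the log2 ratios of Atp2a2, Slc8a1 and Hrc turned to 0.03, 0.03 and 0.00. That scaling brought Sln (adjusted p = 0.00742 in the exact binomial test) and Atp2b1 past the threshold. By the same test S100a1 (adjusted p = 0.320), Hrc (0.981) and Slc8a1 (0.0554) no longer passed. Atp2a2 still passed (adjusted p = 7.15e-23), now in the other direction. The comparison of the animals needs both, so no replicate could be left out there. No paired analysis was possible because there is 1 group. Depth limits Atp2a1, with 39 and 30 counts, and the transcripts of Atp2a3 and Atp2b4.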
